A study of Mus musculus with 3 samples.

Results

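The beta cells of a wild-type mouse islet library were described from all of the genes counted in them. A barcode was taken as a beta cell where *Ins2* made up 20% or more of its unique molecular identifiers (UMIs, each standing for 1 captured transcript), with *Gcg* under 3%, *Sst* under 2% and *Ppy* under 2%. The rule held for 8259 of the 12000 barcodes of the wild-type (WT) library, and the series holds 25524 barcodes in 3 libraries. The study asked what the loss of Taf4, a subunit of the general transcription factor TFIID, does to beta cells, and used scRNA-seq of islets on the C57/Bl6 background with 1 library for each condition. The WT library came from islets of 1 mouse labelled male, and each of the mutant libraries from islets pooled from 2 males in which Taf4 had been inactivated for 1 week or 5 weeks. In the study's crosses an *Ins1*::Cre-ERT2 transgene, expressed in beta cells, deletes floxed *Taf4* after tamoxifen, and controls carry the transgene with *Taf4*+/+; the label of the sequenced control says only that its genotype is wild type. The same rule found 1138 cells in the library taken at 1 week and 5299 at 5 weeks, which are used here only for the level of *Taf4* and for a count of shared barcodes.

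Beta cells are the insulin-secreting endocrine cells of the islet. Glucose enters them through Glut2 (*Slc2a2*), is metabolised and raises ATP, which closes a potassium channel built from *Kcnj11* and *Abcc8*; calcium then enters and insulin granules fuse with the membrane. Proinsulin is folded and oxidised in the endoplasmic reticulum (ER) and cut to insulin in the granule by the prohormone convertases *Pcsk1* and *Pcsk2*. Mice have a pair of insulin genes, *Ins1* and *Ins2*, and beta cells also release amylin, the product of *Iapp*. The neighbours of beta cells in the islet are mainly alpha cells, which make glucagon (*Gcg*), and delta cells, which make somatostatin (*Sst*).

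The beta cells were compared with the other endocrine cells of the same library, 2815 cells with *Gcg* at 15% or more of their UMIs and 621 with *Sst* at 5% or more, 3436 in all. No cell met both limits, and 305 barcodes belonged to neither set, 146 of them with *Ins2* at 20% or more but too much of another hormone. The beta cells nearest to the limit had 20.3%, 20.3% and 20.5% *Ins2*, and the nearest cells left out by that limit alone had 19.9%, 19.8% and 19.4%. The limit left out 79 cells on its own, and the limit on *Gcg* alone left out 134, of which the lowest had 3.02% *Gcg* against 3.00% in the highest beta cell. Most of the beta cells were far from the limit on *Ins2*, with 8145 at 30% or more, while 114 had *Gcg* between 2% and the limit of 3%. With 1 library a group holds no replicate, so no test between groups was made and no p-value is given; intervals in parentheses are exact 95% intervals for counting error only.

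A beta cell had a median of 1655 UMIs (range 501 to 9093) and 390 detected genes, against 740 UMIs and 301 genes in the other endocrine cells. Summed over cells, these were 16016469 and 2847393 UMIs. The markers given for the label, *Ins2*, *Ins1*, *Iapp*, *G6pc2* and *Slc2a2*, were all high, with values below. The library is labelled male, yet the beta cells held 10770 UMIs of *Xist*, the RNA of X inactivation, a level of 2103 per 1000000 UMIs outside the hormone genes, against 3538 in alpha and 3711 in delta cells. Of 4 Y-linked genes looked up, *Ddx3y*, *Eif2s3y*, *Kdm5d* and *Uty*, no row was found among those used here, so the sex given for the mouse of this library is in doubt. *Taf4* had 74 UMIs in the beta cells, or 14.4 per 1000000 UMIs outside the hormone genes (11.3 to 18.1), against 12.9 (10.1 to 16.2) and 10.5 (8.46 to 12.9) in cells that met the same rule 1 and 5 weeks after inactivation; reads were counted at the 3′ end of transcripts and no source places the deleted exons relative to it, so this does not check the genotype. Of the beta cell barcodes, 2 also occurred in the 1-week library and 24 in the 5-week library. Transcripts of pancreatic acinar cells were present in all classes, with a median of 5 UMIs over a list of 10 acinar genes in a beta cell and 6 in an alpha or delta cell.

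Insulin and amylin transcripts made up most of the beta cell's RNA. *Ins2* took 43.78% of the UMIs summed over beta cells (43.75 to 43.80), *Ins1* 15.36% (15.34 to 15.38) and *Iapp* 8.63% (8.62 to 8.65). Genes other than the hormones *Ins1*, *Ins2*, *Iapp*, *Gcg*, *Sst*, *Ppy* and *Pyy* were left with 31.98% of the UMIs, against 59.8% in the other endocrine cells. These shares follow in part from the rule, which selected on *Ins2* and limited *Gcg*, *Sst* and *Ppy*, and are given as a description. *Ins1* and *Iapp* were not used by the rule, but the authors had already removed cells high in *Ins1* together with *Gcg* or *Sst*. In cells with *Gcg* at 15% or more *Ins1* was 1.03% of UMIs and *Iapp* 0.776%, and in cells with *Sst* at 5% or more *Ins1* was 1.38% and *Iapp* 5.56%. *Iapp* was thus the one of the 3 that the delta cells shared, at a level within 2-fold of that in beta cells.

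The promoters of *Ins1* and *Iapp* are shown because their transcripts mark these cells and their levels were not used by the rule. Each is the RefSeq sequence from 250 bases before to 50 bases after the transcription start, on the plus strand of GRCm38.p6 (mm10, the build of the files). The *Ins1* window is chr19:52264047-52264346 and the *Iapp* window chr6:142298175-142298474. Capitals mark 2 motifs searched on both strands: TAAT (or ATTA), the core bound by homeodomain factors such as Pdx1 and Nkx6-1, and CANNTG, the E-box bound by helix-loop-helix factors such as Neurod1, which reads the same on both strands.

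Ins1: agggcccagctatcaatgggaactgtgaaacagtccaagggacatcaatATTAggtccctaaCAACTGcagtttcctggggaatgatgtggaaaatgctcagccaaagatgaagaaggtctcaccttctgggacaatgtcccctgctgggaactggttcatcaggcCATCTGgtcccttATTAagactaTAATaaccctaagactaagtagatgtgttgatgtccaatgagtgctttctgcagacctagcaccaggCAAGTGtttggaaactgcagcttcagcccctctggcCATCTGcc

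Iapp: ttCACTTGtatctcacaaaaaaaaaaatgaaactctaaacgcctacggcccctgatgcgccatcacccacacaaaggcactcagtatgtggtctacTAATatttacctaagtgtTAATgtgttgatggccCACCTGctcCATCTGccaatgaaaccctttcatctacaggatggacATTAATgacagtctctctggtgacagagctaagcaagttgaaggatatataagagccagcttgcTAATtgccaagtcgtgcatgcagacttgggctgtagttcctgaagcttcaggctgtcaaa

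The *Ins1* window held 3 TAAT and 4 CANNTG matches, and the *Iapp* window 5 TAAT matches, of which 2 overlap by 2 bases 74 bases before the start, and 3 CANNTG matches. Among the 32851 promoter windows of this length in the table, 58.0% held at least 1 TAAT and 72.3% at least 1 CANNTG. At least 5 TAAT were found in 6.86% of windows and at least 3 in 20.04%, while at least 4 CANNTG were found in 6.49% and at least 3 in 17.6%. A match is a run of letters and does not show that a factor binds. Of the 3 genes *Ins1*, *Ins2* and *Iapp*, 2 were matched in the promoter table.

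From cell to cell the hormone shares kept to narrow ranges. The middle 90% of beta cells had 34.6% to 50.2% *Ins2*, 10.2% to 19.7% *Ins1* and 5.17% to 12.1% *Iapp*. The corresponding medians were 44.0%, 15.3% and 8.16%. For *Ins1* and *Ins2* the middle 90% of the beta cells did not overlap that of the alpha or delta cells, whereas for *Iapp* it overlapped that of the delta cells, whose 95th percentile was 9.18%. *Ins1* exceeded *Ins2* in 1 beta cell, and *Iapp* exceeded *Ins1* in 404.

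**Figure D1:**
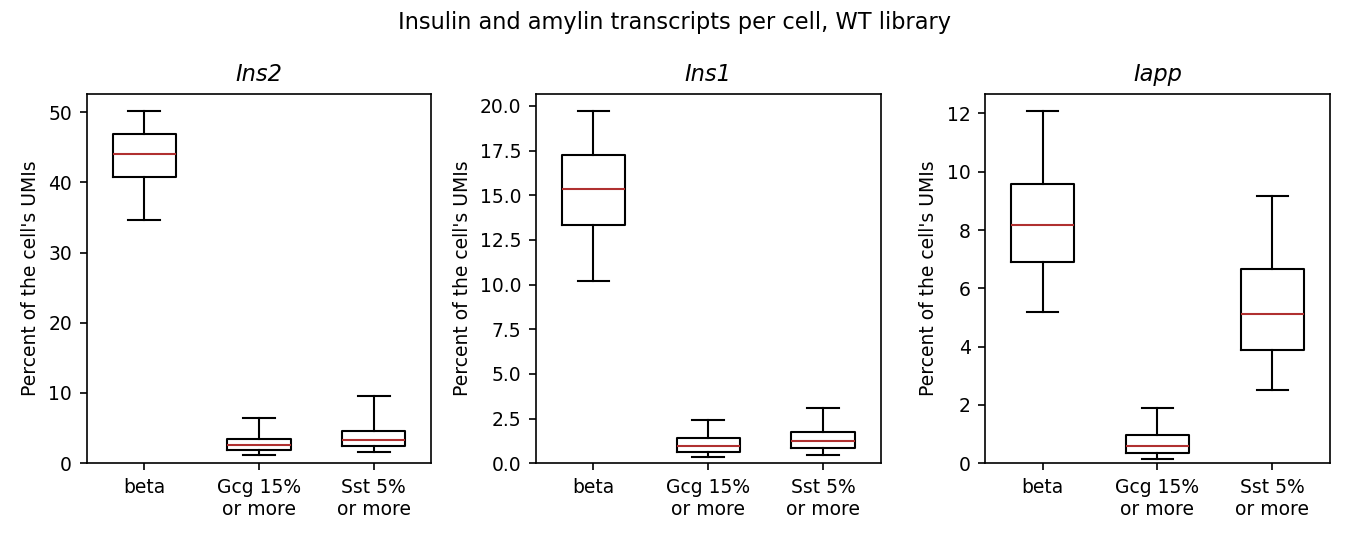
Boxes show *Ins2*, *Ins1* and *Iapp* as a percent of each cell's UMIs in beta cells (n = 8259), cells with *Gcg* at 15% or more (n = 2815) and cells with *Sst* at 5% or more (n = 621); the line is the median, the box the middle 50% and the whiskers the 5th and 95th percentiles. The separation in *Ins2* follows from the rule, while the *Iapp* whiskers of beta cells (5.17% to 12.1%) overlap those of the *Sst* cells.

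Other islet hormones were low in the beta cells, which for *Gcg*, *Sst* and *Ppy* follows in part from the limits of the rule. *Pyy* was not used by the rule. *Gcg* was 0.183% of UMIs (0.181 to 0.186), *Pyy* 0.0319%, *Sst* 0.0244% and *Ppy* 0.0116%. A beta cell held on average 3.56 *Gcg* UMIs (3.517 to 3.598), while a delta cell, which should lack *Gcg*, held 2.31 (2.19 to 2.43). At least 1 *Gcg* UMI was found in 82.0% of beta cells at a median depth of 1655 UMIs and in 83.9% of delta cells at 622. The share was thus no higher than in delta cells and the mean number higher, at a greater depth. The *Gcg* UMIs were unevenly spread, and 265 beta cells had *Gcg* at 1% or more. *Pyy*, which encodes peptide YY, reached 1% in 24 beta cells.

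The 2 insulin genes were used in a ratio that varied between cells by more than counting error. *Ins1* supplied 26.0% of the summed insulin UMIs. Per cell the share had a standard deviation (SD) of 3.94 percentage points, of which counting error at each cell's depth accounts for 1.44, leaving 3.67 points beyond counting. The 5th and 95th percentiles were 19.2% and 31.9%, the lowest cell had 3.54% and the highest 51.7%. The distribution had 1 peak with thin tails, and 10 of the 8259 cells were under 10%. *Ins1* and *Ins2* have similar coding sequences, and how reads that match both were assigned is not given in the sources used here, so the share itself may depend on the counting.

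**Figure D2:**
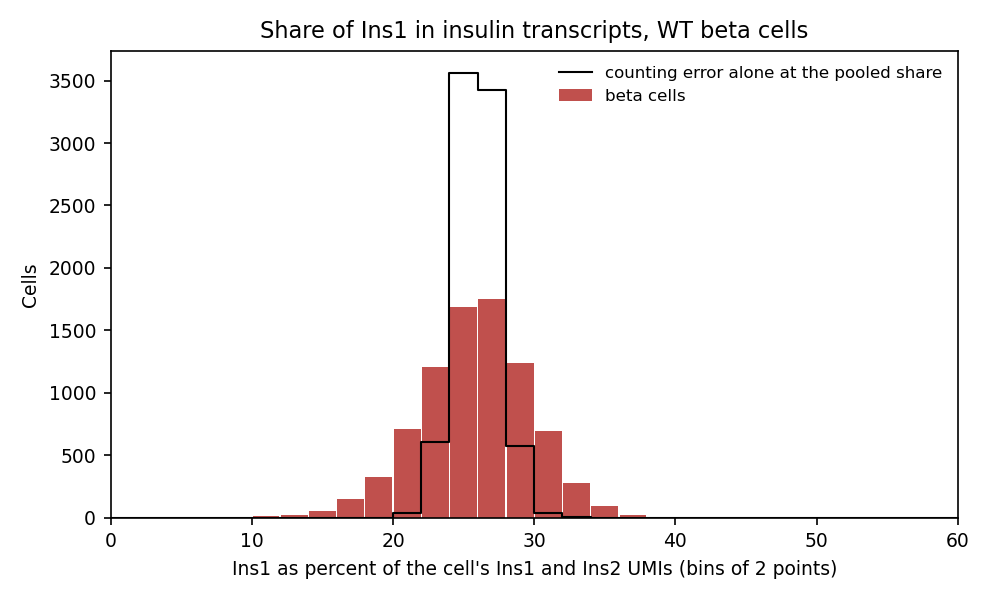
Bars count beta cells (n = 8259) by the percent of their *Ins1* and *Ins2* UMIs that came from *Ins1*, in bins of 2 points, and the line is the number of cells per bin if every cell had the pooled share of 26.0% and only counting error acted. The cells spread more widely than counting alone (SD 3.94 against 1.44 points) and form 1 peak.

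To describe the other genes without the large share that each class gives to its own hormones, levels are given from here on as UMIs per 1000000 UMIs of genes other than the 7 hormones. By UMI count, which at the 3′ end does not grow with transcript length, the most abundant transcripts after the hormones, ribosomal protein and mitochondrial genes left out, were *Malat1*, a nuclear non-coding RNA, at a level of 14068, *Ubb* (ubiquitin) at 8098, *Pcsk1n* (proSAAS, an inhibitor of *Pcsk1*) at 6102, *Chga* (chromogranin A) at 5478 and *Resp18*, a granule protein, at 4698. They were followed by the initiation factor *Eif1* (4284), the acinar protease *Ctrb1* (4276), the ferritin chains *Ftl1* (3515) and *Fth1* (3137), the prolyl isomerase *Ppia* (3116) and *Ssr4* (2964), a subunit of the ER translocon-associated complex. Of these, *Pcsk1n* and *Resp18* were lower in beta cells than in the other endocrine cells, where their levels were 16160 and 14941. The log2 ratios were −1.41 (−1.43 to −1.38) and −1.67 (−1.69 to −1.64). *Ftl1* was higher, with a log2 ratio of 1.504 (1.44 to 1.57), and the log2 ratios of the other 8 named here lay between −0.70 for *Malat1* and 0.85 for *Ppia*.

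Of 7012 genes with at least 100 UMIs in beta and other endocrine cells together, 878 (12.5%) had a level at least 2-fold higher in beta cells and 215 (3.07%) one at least 2-fold lower. This split rests on the total. With all UMIs as the total, so that insulin counts, every log2 ratio is lower by 0.90, the median over all genes moves from 0.27 to −0.63, and the counts become 225 higher and 1756 lower. The share of calls that were higher then goes from 80.3% to 11.4%, and any gene with a log2 ratio between 0 and 0.90 turns from higher to lower. For each list below with more than 1 gene tested, the distance of its median from the median of all genes is therefore given as well, since it is the same under both totals. Beta cells held 5121731 non-hormone UMIs and the other cells 1702147, so that many genes reached 100 UMIs through the beta cells; counts over a list describe it and do not support its direction. Against alpha cells alone 1071 of 6831 genes (15.7%) were higher in beta cells and 186 (2.72%) lower, and against delta cells alone 811 of 6297 (12.9%) and 338 (5.37%). Among 6288 genes compared with both, 446 were higher in beta cells than in either and 57 lower. Transcripts of other classes were counted in each class, and whether they came from free RNA, mixed cells or pairs of cells was not tested. *Ins2* was 2.91% of UMIs in alpha cells and 4.30% in delta cells. An estimate of free RNA took all *Gcg* UMIs of beta cells and all *Ins2* UMIs of the other cells as free. After it had been subtracted from both groups 995 genes were higher and 237 lower, with all 878 and 215 among them. Taking a profile summed over the same library out of both groups tends to move ratios apart, so this does not check the counts.

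**Figure D3:**
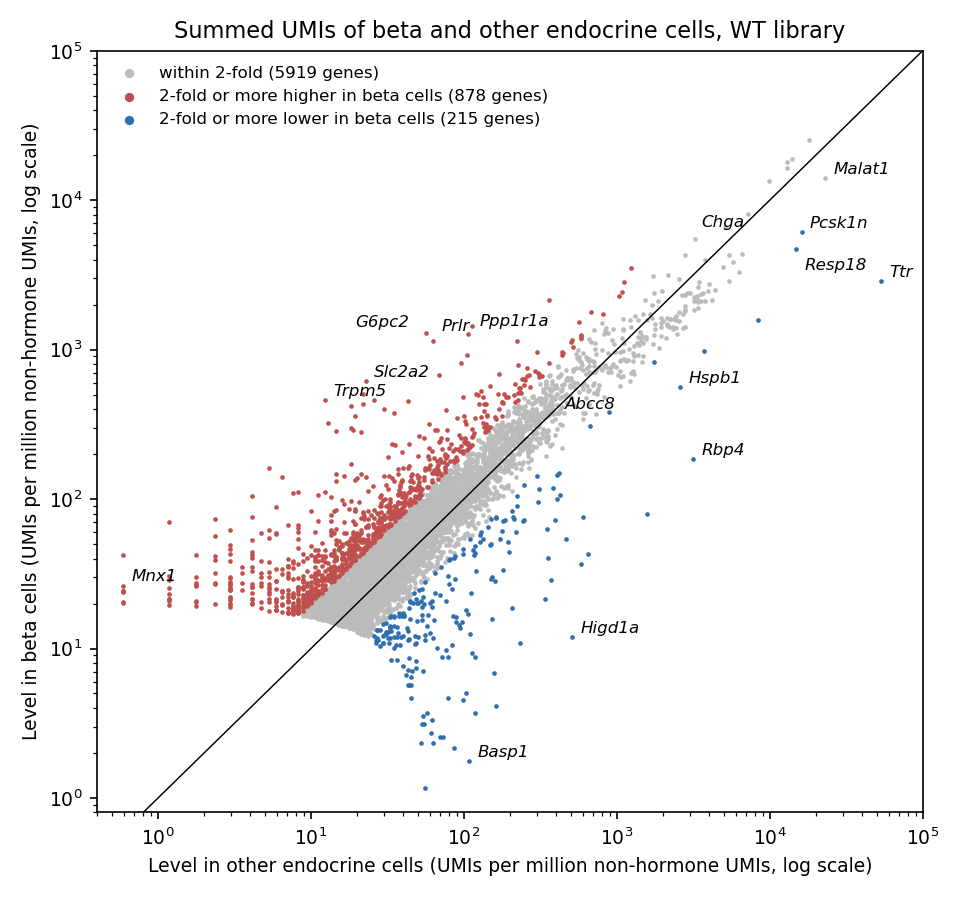
Each point is 1 of 7012 genes, with its level in other endocrine cells (x) and in beta cells (y), both in UMIs per 1000000 non-hormone UMIs on log scales; the line marks equal levels. The 878 genes at least 2-fold higher in beta cells are red and the 215 at least 2-fold lower are blue, with *G6pc2*, *Slc2a2* and *Trpm5* far above the line and *Ttr*, *Rbp4* and *Higd1a* far below.

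The gene with the highest ratio among those with more than 3 UMIs in the other cells was *Trpm5*, a calcium-activated cation channel, with 2366 UMIs in beta cells, a level of 462, and 21 UMIs, a level of 12.3, in the other cells (log2 ratio 5.23, 4.61 to 5.92). Of the 15 highest ratios, 9 rested on 1 or 2 UMIs in the other cells and carry wide intervals. They include *Mnx1*, a homeodomain factor of the pancreas, with 135 against 1 UMI (5.49, 2.98 to 10.80), and *Derl3*, which acts in ER-associated degradation, with 125 against 1 (5.38, 2.87 to 10.69). *Gm44850* (215 against 1 UMI), *Gm27168* (362 against 2), *Lgals12*, *Gm4791*, *Olfr1322*, *Zdhhc22* and *Col6a3* were the other 7. The others of the 15 were *Slc2a2* (log2 ratio 4.76), *Fam151a* (4.93), the long non-coding RNA *2410021H03Rik* (4.97, on 4 UMIs in the other cells), *Gad1*, the enzyme that makes GABA (4.66, 3.61 to 5.99), and the protease *Bace2* (4.65, 4.05 to 5.33). *Fam151a* had 823 UMIs in beta cells against 9, *Gad1* 534 against 7 and *Bace2* 1664 against 22.

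Among the 15 lowest ratios *Basp1* came first, with 9 UMIs in beta cells and 184 in the other cells (−5.94, −7.09 to −4.99). *Higd1a*, a mitochondrial protein induced by hypoxia, had 61 against 868 UMIs (−5.42, −5.82 to −5.04) and *Pdk4*, the kinase that shuts off pyruvate dehydrogenase, 11 against 146 (−5.32, −6.35 to −4.44). These 2 were alpha cell transcripts, at levels of 617 and 104 there and with no UMI in the delta cells, whereas *Ly6h* was a delta cell transcript at a level of 893, against 1.42 in alpha and 6.83 in beta cells. Others of the 15 were *Ctxn2*, *Irx1*, *Slc38a5*, *Ndst4*, *Eef1a2*, *Mamld1*, *Arg1*, *Wnk3* and *Irx2*, between −5.32 and −4.35. *Arg1*, arginase, differed from most of these in that its level was higher in delta cells (240) than in alpha cells (69.0).

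Genes listed for beta cell identity were nearly all far higher in beta cells. Of 16 tested, 15 were at least 2-fold higher and none lower, where 12.5% and 3.07% of all genes were. The median log2 ratio was 3.62, or 3.36 above the median of all genes. *G6pc2*, the islet glucose-6-phosphatase, had 6583 UMIs in beta cells, a level of 1285, and 96 UMIs, a level of 56.4, in the other cells (4.51, 4.22 to 4.82). *Slc2a2*, which encodes Glut2, stood at 619 against 22.9 (4.76, 4.30 to 5.25) and *Ucn3*, the urocortin that beta cells release onto delta cells, at 419 against 18.2 (4.53, 4.02 to 5.09). *Prss53* (4.53), *Pcsk1* (4.32), *Sytl4*, the granule protein granuphilin (4.21), *Ppp1r1a*, a phosphatase inhibitor (3.68) and *Ero1lb*, the oxidase that drives disulfide formation in proinsulin (3.57), were similarly placed. The exception was the granule zinc transporter *Slc30a8*, at 860 in beta and 753 in alpha cells but 105 in delta cells, whose log2 ratio was 0.43 against all other cells and 3.04 against delta cells. *Nnat* showed the opposite, with 57.0 in beta, 2.84 in alpha and 98.1 in delta cells. The list was written with knowledge of beta cells and of these data and is not independent support for the label.

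Of 16 transcription factors tested, 7 were at least 2-fold higher in beta cells than in the other cells, which were mostly alpha cells, and none lower. Of all genes 12.5% were higher and 3.07% lower. *Mafa*, an activator of insulin transcription, had a level of 402 against 29.96 (3.75, 3.35 to 4.18), *Nkx6-1*, which represses the alpha programme, 380 against 34.7 (3.45, 3.08 to 3.85) and *Pdx1* 112 against 23.5 (2.26, 1.80 to 2.76). *Pdx1* was also at 57.5 in delta cells, so its log2 ratio was 2.78 against alpha and 0.97 against delta cells. *Mlxipl*, which encodes the glucose-responsive factor ChREBP, gave 1.99, *Glis3* 1.70 and *Insm1* 1.64. *Mnx1* was the other, and the median of 0.78 was 0.51 above that of all genes. *Neurod1* (0.98), *Nkx2-2* (0.58), *Pax6* (0.55), *Foxa2* (0.38), *Rfx6* (0.01) and *Isl1* (−0.49) were within 2-fold. The set differed against delta cells, where 5 were higher and 1 lower, against 12.9% and 5.37% of all genes. *Neurod1* (1.11) and *Nkx2-2* (1.20) passed 2-fold, *Mlxipl* (0.35), *Glis3* (0.28) and *Insm1* (0.54) did not, and *Isl1* was lower (−1.27). With all UMIs as the total the median turned to −0.12, with 5 higher and 3 lower, where 225 and 1756 of all 7012 genes were.

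The genes of glucose sensing and excitability did not move as a block. Of 18 tested, 8 were at least 2-fold higher in beta cells, 1 was lower and 9 were within 2-fold. Of all genes 12.5% were higher and 3.07% lower. The median of 0.50 was 0.23 above that of all genes. With all UMIs as the total this median turned to −0.40, with 6 higher and 6 lower, where 225 and 1756 of all 7012 genes were. Apart from *Slc2a2*, *G6pc2*, *Trpm5* and *Mlxipl*, the higher genes were the ER calcium pumps *Atp2a2* (1139 against 221, log2 ratio 2.37, 2.22 to 2.52) and *Atp2a3* (1.77), pyruvate carboxylase *Pcx* (2.62, 1.66 to 3.77) and the glycerophosphate shuttle enzyme *Gpd2* (1.53, 1.13 to 1.96). The potassium channel subunits were within 2-fold of their level in alpha cells. *Abcc8* was at 377 in beta, 361 in alpha and 612 in delta cells. Its log2 ratio was 0.06 (−0.08 to 0.21) against alpha cells and −0.10 (−0.23 to 0.03) against all other cells. *Kcnj11* was at 34.2, 38.4 and 81.2, with ratios of −0.17 (−0.62 to 0.30) and −0.42 (−0.82 to −0.02) in the same order. *Kcnj11* was more than 2-fold lower than in delta cells (−1.25). The calcium channels *Cacna1d* (0.44), *Cacna1c* (0.29) and *Cacna1a* (−0.37) were within 2-fold, and the sodium channel *Scn3a*, at 14.1 against 57.0, was the lower gene (−2.02, −2.48 to −1.56).

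Of 14 receptors for hormones, transmitters and nutrients tested, 10 were at least 2-fold higher in beta cells and none lower. Among all genes 12.5% were higher. The median of 2.53 was 2.27 above that of all genes. With all UMIs as the total 8 were higher and 2 lower, where 225 and 1756 of all 7012 genes were. The prolactin receptor *Prlr* was by far the best counted, at 1136 against 62.9 (4.18, 3.90 to 4.47), and was higher than in alpha cells (4.38) and delta cells (3.48). *Galr1* (3.97, 2.39 to 6.26) and *Chrm3* (3.89, 2.31 to 6.19), the receptors for galanin and acetylcholine, rested on 3 UMIs each in the other cells. The adrenergic receptor *Adra2a* gave 3.32 (2.42 to 4.40), the glucagon receptor *Gcgr* 3.19 (1.93 to 4.83), and the fatty acid receptor *Ffar1* 2.54 (1.93 to 3.21), while the GABA receptor subunit *Gabbr2* had 129 UMIs against 5. *P2ry1* (2.53), *Igf1r* (1.71) and the incretin receptor *Gipr* (1.67) completed the 10. Against delta cells alone *P2ry1* (0.74) and *Igf1r* (0.79) were within 2-fold. The rest of the 10 were past it, but *Ffar1*, *Galr1*, *Chrm3*, *Gcgr* and *Gabbr2* on only 1 or 2 UMIs in delta cells. Each of the 10 passed the minimum of 100 UMIs through its beta cell UMIs alone. *Insr*, the insulin receptor, was at 33.2 against 31.1 (0.09, −0.36 to 0.57), and *Sstr3* (0.67), *Gabbr1* (−0.46) and *Gpr119* (−0.64) were also within 2-fold. *Glp1r*, the receptor for GLP-1, had 31 UMIs in beta cells and 0 in the other cells, too few to be tested.

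Granule proteins were shared among the endocrine cells, with exceptions in both directions. Of 16 tested genes of granule cargo and processing, 2 were at least 2-fold higher in beta cells and 4 lower, against 12.5% and 3.07% of all genes. The median of −0.05 was 0.32 below that of all genes. The convertases differed, *Pcsk1* at 435 in beta cells and 21.7 in the others (4.32, 3.86 to 4.83), and *Pcsk2* at 2132 and 3208 (−0.59, −0.64 to −0.54). Secretogranin *Scg2* was the other higher gene (2855 against 1110, 1.36), but at 2933 in delta cells it was higher only than in alpha cells (1.97 against −0.04). The 4 lower genes were *Pcsk1n*, *Resp18*, *Vgf* (−1.92) and *Cryba2* (−2.99). *Chga* (0.75), carboxypeptidase E *Cpe* (0.22), *Scg3* (0.50), *Scg5* (−0.98) and the amidating enzyme *Pam* (−0.67) were within 2-fold. Among 13 genes of granule exocytosis 4 were higher and none lower, where 12.5% and 3.07% of all genes were. The 4 included *Sytl4* (4.21), *Rab3a* (1.21) and *Syt13* (1.01), while *Snap25* (0.29), *Vamp2* (0.92) and *Syt7* (0.06) were within 2-fold. The median was 0.34, or 0.08 above that of all genes. With all UMIs as the total, 8 cargo genes were lower and 1 higher, and 2 exocytosis genes were lower and 1 higher. Under that total 1756 of all 7012 genes were lower and 225 higher. The list medians were −0.96 and −0.56, the second with its sign turned.

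Of 25 genes of protein folding in the ER, all of them tested, 15 were at least 2-fold higher in beta cells, 10 were within 2-fold and none was lower. Of all genes 12.5% were higher and 3.07% lower. The median of 1.31 was 1.04 above that of all genes. With all UMIs as the total the median was still above 0, at 0.41, with 3 higher and 0 lower. Under that total 225 of all 7012 genes were higher and 1756 lower. The neurotrophic ER protein *Manf* was at 1791 against 680 (1.40, 1.31 to 1.49), the chaperone *Hspa5* (BiP) at 1167 against 510 (1.19, 1.09 to 1.30), the J-protein *Dnajb9* at 754 against 260 (1.54), calreticulin *Calr* at 662 against 257 (1.36) and *Hyou1* at 144 against 32.3 (2.15, 1.75 to 2.57). *Herpud1*, which the study follows as a stress gene, was at 387 against 194, just within 2-fold (0.99, 0.82 to 1.17). The lowest ratios were those of *Ern1* (0.45), *Syvn1* (0.46, −0.11 to 1.06) and *Pdia3* (0.58). Against alpha cells 17 of the 25 were higher and against delta cells 11, where 15.7% and 12.9% of all genes were. The medians were 1.37 and 0.73, and *Pdia4* (−0.06), *Ero1l* (−0.03) and *Syvn1* (−0.07) were at about the level of delta cells.

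The integrated stress response list was less even, with 5 of 12 at least 2-fold higher and none lower, where 12.5% and 3.07% of all genes were. Its median was 0.78, or 0.51 above that of all genes. With all UMIs as the total this median turned to −0.12, with 2 higher and 3 lower, where 225 and 1756 of all 7012 genes were. *Atf5* was the most different, at 172 against 18.2 (3.24, 2.72 to 3.80), followed by *Nupr1* (2.03), asparagine synthetase *Asns* (1.28), *Vldlr* (1.22) and *Chac1* (1.04). *Atf5*, *Nupr1* and *Asns* were past 2-fold against alpha and delta cells alike. *Vldlr* was higher only than in alpha cells, at 42.4 in beta, 8.53 in alpha and 64.3 in delta cells. *Chac1* was within 2-fold of alpha cells (0.83) and had 1 UMI in delta cells. *Ddit3*, which encodes the stress factor CHOP, was at 140 against 81.1 (0.79, 0.52 to 1.06) and *Atf4* at 267 against 177 (0.59). *Ppp1r15a*, *Ddit4* and *Sesn2* had ratios under 0, from −0.96 to −0.52.

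Immediate early genes and heat shock chaperones, which are induced within minutes by tissue dissociation as well as by other stimuli, were compared in turn. Against all other endocrine cells 2 of 15 and 2 of 10 were at least 2-fold lower, where 3.07% of all genes were. The medians were −0.50 and −0.38, at −0.77 and −0.65 from that of all genes. With all UMIs as the total 13 and 9 were lower, where 1756 of all 7012 genes were. Against delta cells 9 of 13 immediate early genes and 7 of 10 heat shock genes were at least 2-fold lower and none higher, with medians of −1.11 and −1.27, where 5.37% of all genes were lower. Against alpha cells 2 of 14 and 1 of 10 were lower, where 2.72% of all genes were. Among the larger differences were those of *Hspb1*, a small heat shock protein, at 562 in beta, 1432 in alpha and 8204 in delta cells, and of *Atf3*, at 72.2, 428 and 223. *Jun* stood at 683, 1064 and 2439 and *Fos* at 662, 1017 and 1458 in the 3 classes. *Hspa1a* (829 against 1418 and 3393) and *Hspa1b* (905 against 1181 and 2920) followed the same order, but these are near-identical copies whose reads cannot be surely separated. Whether dissociation and sorting acted alike on the 3 classes was not tested.

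Alpha and delta genes marked the boundary on the other side. Of 12 alpha identity genes tested, 10 were at least 2-fold lower in beta cells, where 3.07% of all genes were. The median was −3.82, at −4.09 from that of all genes. *Ttr* (transthyretin) stood at 2880 against 64225 in alpha cells and *Irx2* at 5.08 against 122. *Sphkap* was within 2-fold (0.33), and *Dpp4*, a peptidase that cleaves incretins, was higher in beta cells (40.2 against 17.6, log2 ratio 1.19). For *Dpp4* this held against alpha cells (13.5, log2 ratio 1.57) but not against delta cells (37.2, log2 ratio 0.11). *Etv1* was low in beta cells (43.1) and high in both other classes (671 and 514). Of 4 delta genes tested 3 were lower, with a median at −3.36 from that of all genes and *Hhex*, the factor that maintains delta cells, at 3.71 against 325 in delta cells and *Rbp4* at 186 against 10035, and *Fam159b* was within 2-fold against all other cells (−0.62). Their residual UMIs in beta cells were not separated from free RNA.

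The products of some genes disallowed in mature beta cells would divert glucose metabolism or trigger insulin release at rest. Genes of the disallowed list were at low levels in both groups. Summed over 16 genes their level was 11.5 in beta cells and 84.6 in the others, and *Oat* (16 against 94 UMIs, −4.14, −5.01 to −3.37) was the only one counted well enough to compare. *Ldha*, lactate dehydrogenase A, had 4 UMIs in all beta cells. Summed over 12 proliferation genes the level was 34.4 against 40.5, with *Mki67* at 1 UMI and *Top2a* at 5. Among markers of other cell types, the endothelial list summed to a level of 13.9, the mesenchymal list to 3.51 and the red cell list to 7.03, and *Sertm1*, the one gene of the PP cell list counted outside the hormones, had 0 UMIs in beta cells and 25 in the other cells. The ductal list summed to 839.6 against 1009.9, with 1 of 4 tested genes lower, where 3.07% of all genes were. Its median was at −0.54 from that of all genes. In the macrophage list the C1q chain *C1qa* alone had 990 UMIs (1.31, 1.04 to 1.58) with *C1qb* at 7, *C1qc* at 1 and *Adgre1* at 0, and in the lymphocyte list *Cd79a* alone had 276 (2.71, 1.94 to 3.602) with *Cd79b* and *Ms4a1* at 1 each. The 10 acinar genes summed to 15546 in beta and 19307 in other cells, with ratios from −0.55 to −0.11. None was past 2-fold, and the median was at −0.58 from that of all genes. With all UMIs as the total all 10 were lower (median −1.22), where 1756 of all 7012 genes were. Per cell *Ctrb1* had 2.65 UMIs in beta, 2.63 in alpha and 3.02 in delta cells.

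**Figure D4:**
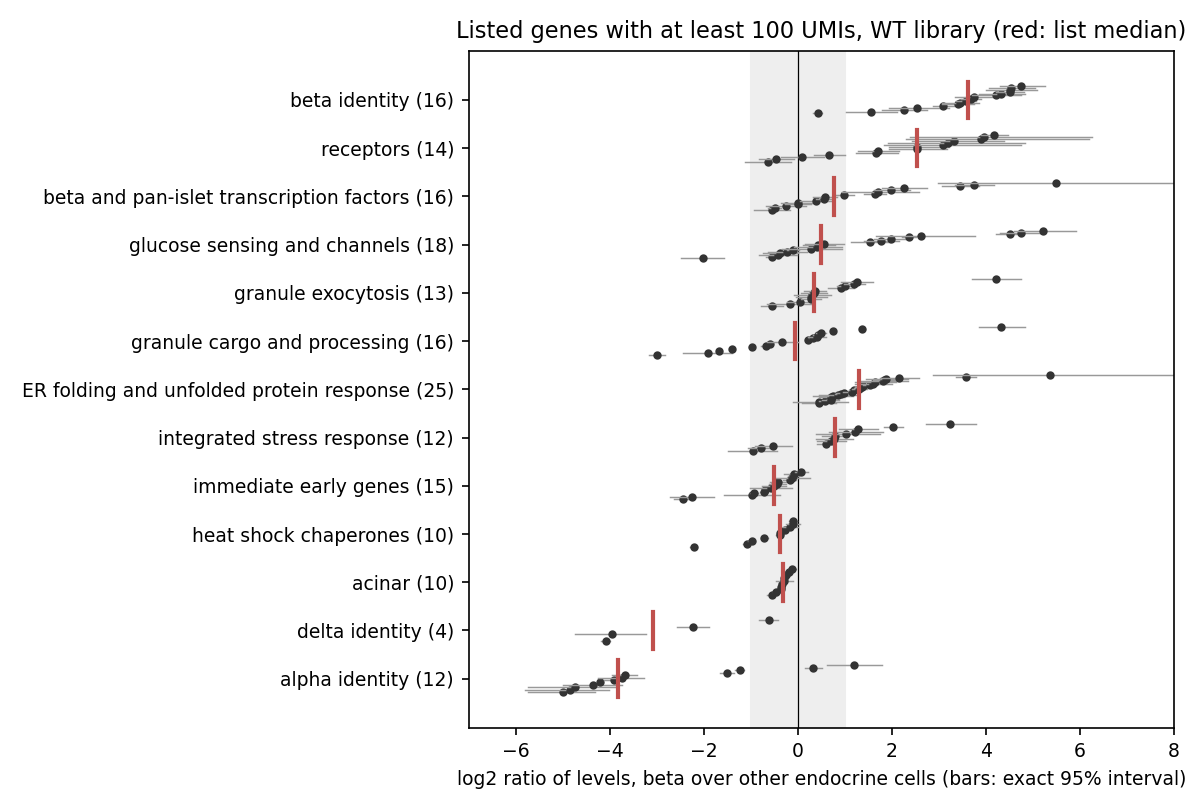
Points are the log2 ratios of levels (per 1000000 non-hormone UMIs), beta over other endocrine cells, of each listed gene with at least 100 UMIs, with exact 95% counting intervals (2 run past the axis); red bars are list medians, the grey band is 2-fold and the number of genes is in parentheses. Identity and receptor genes lie mostly to the right (medians 3.62 and 2.53) and alpha genes mostly to the left (median −3.82). ER folding genes have a median of 1.31 and run from 0.45 for *Ern1* to 5.38 for *Derl3*.

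Spread between beta cells was measured after each cell had been thinned to 1000 UMIs, which kept 7757 cells and left out 502. If cells differed only by counting at this fixed total, a gene's variance would be close to its mean. It would be below the mean for genes with a large share of the UMIs, such as the insulin genes. Of 1019 genes with a mean of at least 0.05 UMI, 44 (4.32%) had a variance at least 1.5 times the mean, the median of variance over mean was 1.01, and 935 genes (91.8%) lay between 0.9 and 1.1. The 44 comprised the 7 hormones, the 10 acinar list genes, 9 other exocrine genes, 5 mitochondrial genes and 13 others, and 0 of 80 ribosomal protein genes, whose highest value was 1.104. Identity genes lay close to counting error, with a variance over mean of 1.05 for *G6pc2*, 1.01 for *Slc2a2*, 1.04 for *Ucn3*, 0.99 for *Mafa* and 1.03 for *Nkx6-1*. At 0.12 to 0.39 UMI per cell for these 5 genes, differences between cells add little to this ratio, so a low value leaves room for a spread that this depth does not show.

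**Figure D5:**
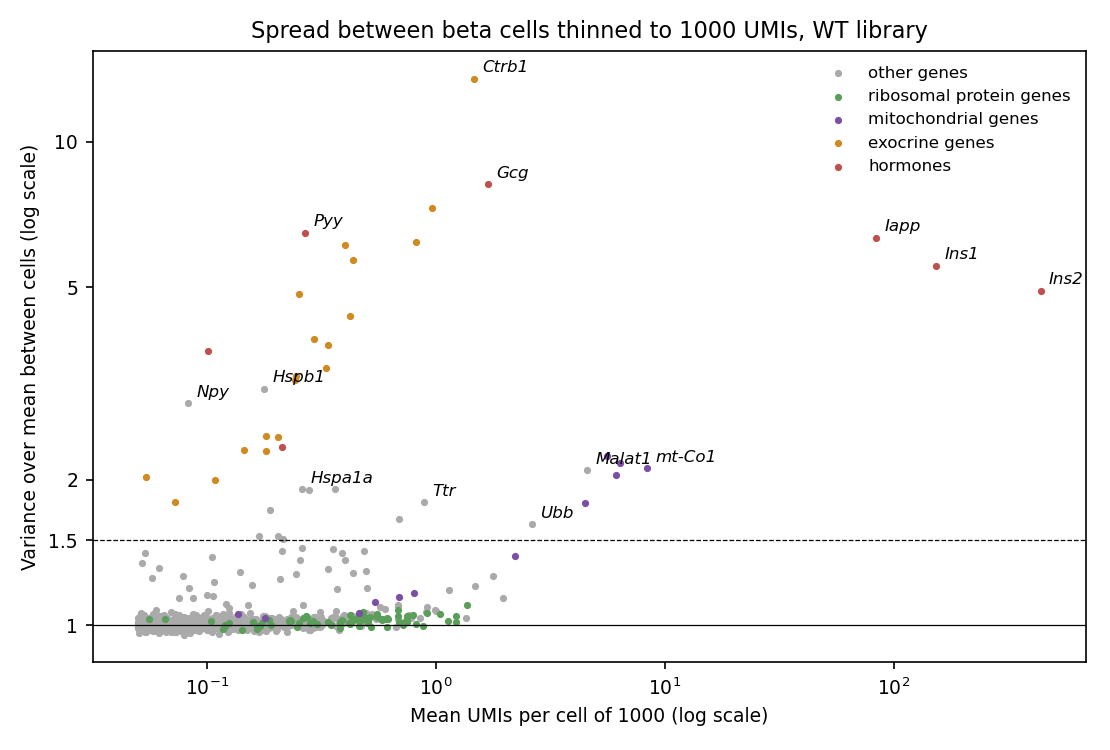
Each point is 1 of 1019 genes in 7757 beta cells thinned to 1000 UMIs, with its mean UMIs per cell (x) and its variance over mean between cells (y), both on log scales. The solid line is a variance equal to the mean, near counting error alone except for the most abundant genes, and the dashed line is 1.5. Most genes lie on the solid line, and exocrine genes, hormones, mitochondrial genes and a few stress genes such as *Hspb1* and *Hspa1a* stand above the dashed line.

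The highest values of variance over mean were those of *Ctrb1* (13.5), *Gcg* (8.17), the trypsinogen *Try4* (7.28), whose reads may be shared with its copy *Try5* (6.12), *Pyy* (6.48), *Iapp* (6.33), the trypsinogen *Prss2* (6.20), the colipase *Clps* (5.70), *Ins1* (5.54) and *Ins2* (4.92). The hormones of beta cells reached such values through their abundance and varied little in relative terms. Beyond counting, the coefficient of variation (CV) was 9.97% for *Ins2*, 17.5% for *Ins1* and 25.4% for *Iapp*. At 500 UMIs per cell, where the classes can be set side by side, *Ins2* in beta cells had a CV of 10.8%, *Gcg* in alpha cells 20.7% and *Sst* in delta cells 30.2%, but each hormone also chose the cells it is measured in, which bounds its spread. The 5 mitochondrial genes were *mt-Co1*, *mt-Co2*, *mt-Co3*, *mt-Atp6* and *mt-Cytb*, with CVs from 36.6% (*mt-Co1*) to 47.1% (*mt-Co2*), and *Malat1* had 48.8%. *Ubb* had 48.5%. The sum of all mitochondrial genes had a CV of 40.1% and that of ribosomal protein genes 18.5%.

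Exocrine and minor hormone transcripts were unevenly held. *Ctrb1* was found in 57.4% of cells and *Gcg* in 62.4%, and *Ctrb1* had a mean of 1.46 UMIs per 1000, a median of 1 and a maximum of 113, and the top 1% of cells held 23.2% of its UMIs. The corresponding shares were 35.9% for *Pyy*, 44.0% for *Ppy*, 16.5% for *Gcg* and 47.7% for *Npy*, neuropeptide Y, which was detected in 4.43% of cells with a maximum of 10 UMIs. Across 7757 cells Pearson's r was 0.48 between *Pyy* and *Ppy* and 0.28 between *Pyy* and *Gcg*, but Spearman's rho was 0.19 and 0.14. Only 20 cells had 10 or more *Pyy* and 6 had 10 or more *Ppy* UMIs, while 6701 had no *Pyy* and 7254 no *Ppy*. How far these cells set the gap between r and rho was not tested. The rule caps *Ppy* and *Gcg*, and all correlations here are over cells of 1 library at a fixed total. In 798 beta cells the acinar list made up 1% or more of UMIs. Without these, 24 of the 44 genes still stood at 1.5 or more and no other gene did. The 19 exocrine genes no longer did, which follows at least in part from leaving out cells by the sum of 10 of them. *Nupr1*, which was 1.53 with all cells, also fell below 1.5.

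The 13 other variable genes were named after their values were seen. *Hspb1* (variance over mean 3.09), *Hspa1a* (1.91), *Hspa1b* (1.901) and *Dnajb1* (1.73) are heat shock chaperones, *Fos* (1.53) and *Jun* (1.505) immediate early genes, *Gadd45g* (1.91) a growth arrest gene, *Mt1* (1.66) a metallothionein and *Nupr1* (1.53) a stress response gene. Of these 9 genes *Hspb1* and *Hspa1a* passed 1.5 in every setting tried, *Dnajb1*, *Fos*, *Gadd45g*, *Hspa1b*, *Jun* and *Mt1* did not at 500 UMIs per cell, where counting weighs more, *Fos* did not with another random seed, and *Nupr1* did not with non-hormone UMIs thinned to 400 or without the acinar-rich cells. Summed over the lists, immediate early genes had a mean of 1.21 UMIs per cell with a CV beyond counting of 135%, and heat shock chaperones 2.54 UMIs with 113%. By contrast the CV was 17.3% for the beta identity list, 27.9% for ER folding and 18.4% for granule cargo.

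These 2 stress lists varied together. No immediate early UMI was seen in 4058 of the 7757 thinned cells, and 586 cells (7.55%) had 5 or more. In the first of these sets the mean heat shock sum was 1.34 (SD 1.38), followed by 1.899, 3.21, 4.50 and 6.26 in cells with 1, 2, 3 and 4 immediate early UMIs and 8.87 (SD 5.22) in those with 5 or more. Pearson's r between the sums was 0.65 and Spearman's rho 0.48. Over the same cells the mean *Ins2* count went from 453 (SD 40.1) to 392 (SD 44.1) of 1000 UMIs, while *Ins1* was 154 (SD 29.2) and 152 (SD 28.7). The ER folding sum went from 3.46 (SD 2.01) to 5.20 (SD 2.76). The median depth before thinning was 1704 UMIs in cells with none and 1667 in cells with 5 or more, and at most 1884 in the sets between them. *Ins2* was accordingly correlated with the immediate early sum at −0.41 and *Ins1* at −0.02. *Ins1* in turn was lower in cells with more ribosomal protein (−0.48) and mitochondrial (−0.41) UMIs, and *Iapp* was lower where *Ins2* was higher (−0.44), bearing in mind that counts of a fixed total push each other down.

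Depth itself went with composition. Beta cells were ordered by total UMIs into 4 groups of about equal size, with a median of 1129 UMIs in the lowest and 3033 in the highest. From the lowest to the highest group *Iapp* was 8.07%, 7.80%, 8.20% and 9.48% of UMIs and *Ins1* 13.9%, 15.6%, 15.9% and 15.4%. The level of *G6pc2* was 946, 1162, 1254 and 1500 in the 4 groups and that of *Pcsk1* 317, 425, 454 and 476. *Slc2a2* (571, 620, 600 and 650), *Herpud1* (370, 363, 435 and 375) and the ER folding sum (10304.5, 11279.5, 12116.5 and 11922.3) did not change steadily. *Malat1* went from 16607 to 12392 and *Ddit3* from 179 to 112. Mitochondrial genes took 13.1% of non-hormone UMIs in the lowest group and 9.13% in the highest, and *Ctrb1* went from 5632 to 2866. The *Ins1* share of insulin was 25.1%, 26.0%, 26.5% and 25.9%. Whether deeper barcodes were larger cells, better captured cells or pairs of cells was not tested, and groups of cells from 1 mouse carry no replicate error.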

How the data were processed

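Live cells from Accutase-dissociated islets were sorted and captured by the authors on 10X Genomics Chromium with 3′ chemistry. Per the submitters' processing notes, reads went through bcl2fastq 2.17.1.14, Cell Ranger 3.1 (mm10) and Seurat 3.1.4. The deposited tables, 1 for each of 3 libraries, hold UMI counts by gene and barcode that were not normalized; the authors had removed unexpressed genes. In the WT library the authors had removed cells high in hormones of 2 classes and doublets called by DoubletFinder, and had scaled the library down to 12000 cells; no further doublet caller was run here. No cell of the classes compared had under 500 UMIs.

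The members and the 22 gene lists were chosen with earlier results of these data known. UMIs were summed over the cells of a class. Hormones are given as a percent of all UMIs and other genes per 1000000 UMIs outside 7 hormone genes. Genes with at least 100 UMIs in the groups compared were tested against a fold of 2 (log2 of 1); with 1 library per group no p-value was computed. Intervals are exact (Poisson for levels, Clopper-Pearson for shares, conditional binomial for ratios, 95%) and cover counting error only. A count of 0 was set to 3 for ratios. For spread, cells were thinned without replacement to 1000 UMIs (500 between classes, seed 1), and a variance of 1.5 times the mean or more was counted among genes with a mean of at least 0.05. The CV beyond counting is the square root of the variance less that expected from counting, over the mean. Correlations were over thinned cells.

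Genes named are those the study names for its single cells, the 15 most abundant by UMIs, the 15 highest and 15 lowest ratios, the 15 highest variances over mean, and list members, with those past 2-fold first. The 9 exocrine genes outside the acinar list were grouped, and genes of high spread past the first 15 named, after their values were seen. Promoters were taken for 2 of the 3 genes looked up. Steps were run in Python 3.11.15 with numpy 2.4.6, scipy 1.17.1 and matplotlib 3.10.9 and tested on simulated counts. Some genes that these rules name are not reported here.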

Additional observations from a re-analysis of the deposited data

How the results depend on the processing

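Each value rests on 1 library from 1 mouse, so replicate error is unknown. Class, depth and the estimated share of free RNA differ together between beta and other endocrine cells. The number of wild-type beta cells stayed between 7757 and 8292 under 5 other rules. The number of genes at least 2-fold higher in beta cells moved from 878 to 225 with all UMIs as the total, 445 with each cell thinned to 500 UMIs (3415 genes tested), 1479 with at least 20 UMIs and 1713 with at least 1 UMI, and the number lower moved from 215 to 1756, 101, 673 and 3155 in the same order; the low minimums add genes whose ratio is set by few counts. Subtracting the free RNA estimate (4.13% of beta and 8.38% of other UMIs) gave 995 higher and 237 lower, but it tends to move ratios apart and is no check. With other endocrine cells limited to *Ins2* under 5%, mitochondrial and ribosomal protein genes left out, *Ins2* at 30% or more, the mean over cells, or, chosen after seeing the data, without cells with the acinar list at 1% or more, the counts stayed between 795 and 923 higher and 172 and 240 lower. Of 207 listed or named genes tested, 106 were past 2-fold, against 77 with all UMIs as the total, 74 with thinned cells and 94 without the acinar-rich cells. The 44 genes of high spread became 24 without those cells, a choice of cells that itself lowers the spread of acinar genes. They became 31 at 500 and 56 at 2000 UMIs, 36 with non-hormone UMIs thinned to 400, 44 with another seed (43 shared) and 47 with a mean of at least 0.02. No paired analysis was possible because each group has 1 library.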

Other observations

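Some genes placed beta cells between their neighbours. Of the 6288 genes compared with both alpha and delta cells, 24 were at least 2-fold higher in beta cells than in one class and at least 2-fold lower than in the other, and those named here were chosen after their values were seen. *Chgb* (chromogranin B) had levels of 565 in alpha, 1365 in beta and 3613 in delta cells. *Fam159b* followed the same order at 9.24, 120 and 1018, and *Sez6l* at 2.84, 80.2 and 193, on 13 and 4 UMIs in alpha cells. The clock genes *Dbp* (17.1, 53.5 and 125) and *Nr1d1* (3.55, 20.5 and 74.4) did so as well, on 24 and 5 UMIs in alpha cells. In the opposite order *Ttr* stood at 64225 in alpha, 2880 in beta and 913 in delta cells. The amino acid transporter *Slc7a2* was at 496, 148 and 54.1, and lipoprotein lipase *Lpl* at 370, 116 and 23.7. *Slc7a2* and *Lpl* rested on 16 and 7 UMIs in delta cells. For *Ttr* the share of beta cells with a UMI was 71.7% at a median of 1655 UMIs, against 29.6% of delta cells at 622.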
